A study of Saccharomyces cerevisiae with 12 samples.

Results

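The genes described here are 52 nuclear genes of budding yeast, Saccharomyces cerevisiae, that encode the respiratory chain, the ATP synthase, the later steps of the Krebs cycle and the transcriptional activator Hap4. They were picked from the array by name. All 52 were found among the 6252 genes on the array, 50 by gene name and 2, SHH3 and SHH4, by locus, each with 2 spots. The study grew 4 strains in synthetic complete medium and collected them at the diauxic shift, the point at which glucose runs out: an hsp31 deletion, an hsp32 deletion, an hsp33 deletion and a wild type, with 3 arrays each. HSP31, HSP32 and HSP33 encode small proteins of the DJ-1 family. The labels give no strain background, mating type, deletion marker or clone, and do not say whether the 3 arrays of a strain came from separate cultures, so p-values measure the spread between arrays, which may be technical.

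Yeast has no proton-pumping complex I. Electrons from NADH enter through small flavoprotein dehydrogenases, those from succinate through complex II and those from lactate directly at cytochrome c, and complexes III and IV carry them to oxygen while building the proton gradient that drives the ATP synthase. While glucose is plentiful yeast ferments and keeps most of these genes low. When glucose runs out the Hap complex, whose activating subunit is Hap4, raises them, and the diauxic shift is the textbook case of that change.

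Before the results, the arrays were checked against their labels. HSP31 was not above background on any of the 3 hsp31 deletion arrays, and its signal there was at least 44.5-fold lower than in wild type (limma adjusted p = 7.3e-14). HSP32, HSP33 and SNO4 are near-identical copies, so their probes check neither of the other deletions. URA3, a gene of uracil synthesis often used as a selection marker, was above background on all 3 hsp32 deletion arrays and on no wild-type array, at least 219-fold higher in the hsp32 deletion (adjusted p = 2.94e-14). Other marker genes differed too. Of 7 strain marker genes tested, URA3 among them, 3, 5 and 2 were higher and 1 lower in each of the hsp31, hsp32 and hsp33 deletions (adjusted p under 0.05). Of all genes tested, 25.7%, 33.3% and 29.0% were higher and 30.4%, 36.7% and 32.4% lower. The 7 ran from -0.57 to 1.61 in the hsp31 deletion and from -1.33 to 2.08 in the hsp33 deletion. Genes that tell the mating types apart, looked at after the data were seen, set the hsp33 deletion apart. MF(ALPHA)1, an alpha pheromone gene, was at least 31.9-fold higher there than in wild type (adjusted p = 2.58e-12), and HMRA1, a gene of a cells, was above background on no hsp33 deletion array and at least 45.1-fold lower there than in wild type. The effect of a deletion and that of any such strain difference cannot be told apart here. The median foreground of the arrays was 607 to 1153 intensity units over a median local background of 66 to 93. The detection limit was 35.4 to 53.6 units on 11 arrays and 284 on hsp32 deletion replicate 2, and all 52 genes were above it on all 12 arrays, with none saturated.

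**Figure D1:**
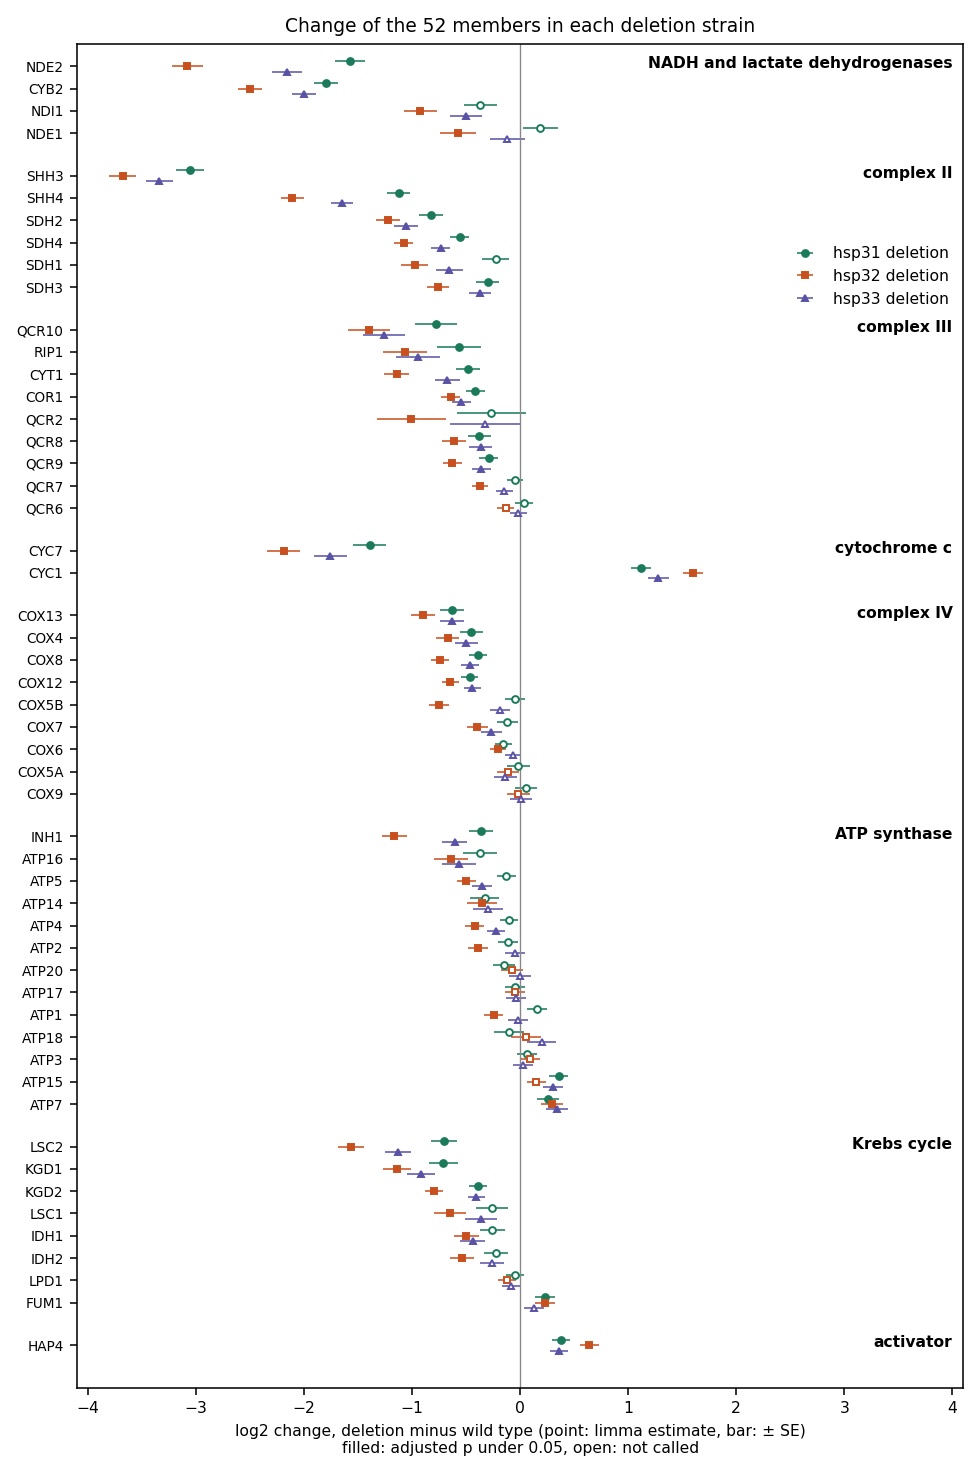
Log2 change of each of the 52 genes in the hsp31 (circles), hsp32 (squares) and hsp33 (triangles) deletions, each minus wild type, with bars for ± 1 SE of the limma fit. Genes are grouped by complex and ordered by mean change, and filled symbols are those past an adjusted p of 0.05. Most filled symbols lie left of 0, SHH3 lies farthest left, and CYC1 lies farthest right, at 1.12, 1.6 and 1.28.

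More of the 52 genes were lower than higher in each deletion strain, and the count was greatest in the hsp32 deletion. In the hsp31 deletion 22 were lower and 5 higher at an adjusted p under 0.05 (limma, Benjamini-Hochberg over the 5863 genes tested), where 30.4% of all genes tested were lower and 25.7% higher, 56.1% in all. In the hsp32 deletion 39 were lower and 4 higher, against 36.7% lower and 33.3% higher, 70.0% in all, among the genes tested. In the hsp33 deletion 30 were lower and 4 higher, against 32.4% lower and 29.0% higher, 61.4% in all, among the genes tested. The median log2 change of the 52 was -0.26, -0.64 and -0.36 in the deletions of hsp31, hsp32 and hsp33, and the median of all genes tested was -0.031, -0.036 and -0.032. The 3 comparisons share the same wild-type arrays and are not independent of each other.

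The mean level was lowest in the hsp32 deletion for 43 of the 52 genes and highest in wild type for 41. All 3 arrays of the deletion lay below all 3 wild-type arrays for 31 genes in the hsp31 deletion, 39 in the hsp32 deletion and 34 in the hsp33 deletion, and among all genes tested the share was 34.8%, 39.7% and 38.2%. In bulk RNA fewer cells that express a gene and less message per cell cannot be told apart.

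The counts depend on how the arrays are scaled, and so do the shares of all genes. Quantile scaling gave the values above. With each array divided by its 75th percentile, 37 genes were lower and 2 higher in the hsp31 deletion, 41 and 2 in the hsp32 deletion, and 38 and 2 in the hsp33 deletion, where 23.4%, 27.8% and 25.0% of all genes tested were lower and 36.8%, 44.0% and 40.4% higher. With each array divided by its median, 45 were lower and 1 higher in the hsp31 deletion, 48 and 2 in the hsp32 deletion, and 44 and 1 in the hsp33 deletion, where 35.7%, 40.5% and 36.8% of all genes tested were lower and 24.2%, 30.3% and 26.6% higher. The 75th percentile moved the median of all genes to 0.12, 0.17 and 0.15 in the deletions of hsp31, hsp32 and hsp33, and the median moved it to -0.08, -0.10 and -0.075. Relative to the median of all genes, the 52 genes lay at -0.23, -0.60 and -0.33 with quantile scaling and at -0.54, -0.87 and -0.63 with either of the others. The direction for the list held under the 3 scalings, and its size and the few rises did not.

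**Figure D2:**
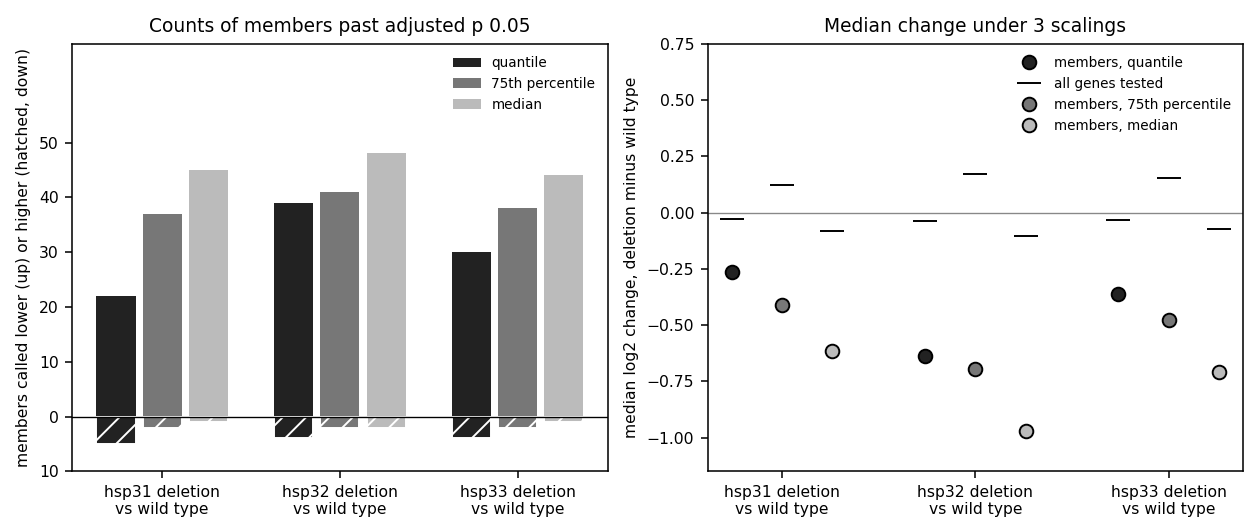
Left, number of the 52 genes called lower (upward bars) or higher (hatched, downward bars) than wild type in each deletion under 3 ways of scaling the arrays. Right, median log2 change of the 52 genes (circles) and of all genes tested (dashes) in the same fits. The circles lie below the dashes in all 9 pairs, and the count of lower genes in the hsp31 deletion runs between 22 and 45.

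The arrays lay on 2 slides, told apart by their scan position, and each slide held all 4 groups. On slide 1 alone 16, 29 and 21 of the 52 genes were lower in the deletions of hsp31, hsp32 and hsp33, with medians of -0.23, -0.56 and -0.44, and 19.7%, 23.1% and 19.1% of all genes tested were lower. On slide 2 alone 10, 33 and 19 were lower, with medians of -0.26, -0.64 and -0.30, and 11.4%, 27.8% and 19.7% of all genes tested were lower. Each slide holds 1 or 2 arrays of a group, so a lone array is assumed to vary like the others. SHH3 lay at -3.04, -3.75 and -3.58 on slide 1 and at -3.08, -3.66 and -3.24 on slide 2, and CYC1 at 1.08, 1.56 and 1.25 on slide 1 and 1.2, 1.57 and 1.25 on slide 2.

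Markers of the carbon source also differed between each deletion and wild type. All 5 genes that mark glucose use were higher in each deletion, with MIG2, a repressor made on glucose, at log2 changes of 2.77, 3.17 and 3.08 and HXK2, the hexokinase of fermenting cells, at 2.88, 2.82 and 2.93 in the deletions of hsp31, hsp32 and hsp33. The mean log2 intensity over those 5 genes was 14.06 to 14.11 in the hsp31 deletion, 14.20 to 14.37 in the hsp32 deletion and 14.07 to 14.28 in the hsp33 deletion, against 11.67 to 11.75 in wild type, with HXT3 saturated on all 9 deletion arrays. Of 9 genes that mark glucose exhaustion, 6, 8 and 7 were lower, with FBP1, an enzyme of glucose synthesis, at -0.96, -2.53 and -1.48, and 1 was higher in the hsp31 deletion. HXT5 and GLK1 were saturated on the 3 wild-type arrays and HXK1 on 10 arrays, so the means below hold saturated values. Their mean log2 intensity was 13.20 to 13.37 in the hsp31 deletion, 11.98 to 12.40 in the hsp32 deletion and 12.63 to 13.01 in the hsp33 deletion, against 13.70 to 13.86 in wild type. The hsp32 deletion, lowest in 43 of the 52 genes, was also lowest in the exhaustion markers. The glucose use markers differed little between the deletions, with median log2 changes of 2.67, 2.82 and 2.62 in the deletions of hsp31, hsp32 and hsp33. The part that the carbon source plays in the changes below was not tested.

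**Figure D3:**
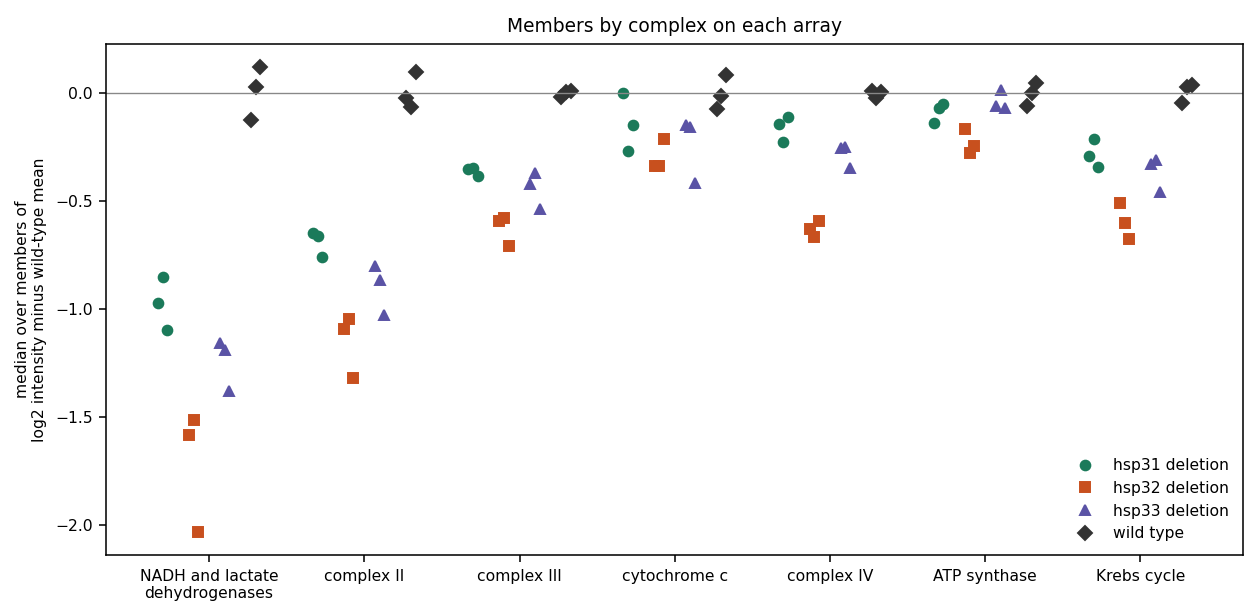
Median, over the genes of each complex, of the log2 intensity on an array minus the wild-type mean, with 1 symbol per array and the hsp31, hsp32 and hsp33 deletions and wild type from left to right in each complex. The hsp32 deletion arrays lie lowest in complexes II, III and IV, in the ATP synthase and in the Krebs cycle, and the distance from 0 is largest for the dehydrogenases.

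The size of the change differed by complex. Counts by complex in the paragraphs below are to be read beside the shares of all genes tested. In the deletions of hsp31, hsp32 and hsp33 these were 30.4%, 36.7% and 32.4% lower and 25.7%, 33.3% and 29.0% higher. The median over the genes of a complex, taken on each array as a difference from the wild-type mean, was lowest in the dehydrogenases, at -1.10 to -0.85 in the hsp31 deletion, -2.03 to -1.52 in the hsp32 deletion and -1.38 to -1.16 in the hsp33 deletion, against -0.12 to 0.12 in wild type. Complex II followed at -0.76 to -0.65, -1.32 to -1.05 and -1.03 to -0.80 in the 3 deletions, against -0.061 to 0.098 in wild type. The ATP synthase lay nearest to wild type of the larger groups, at -0.14 to -0.049, -0.27 to -0.16 and -0.068 to 0.015, against -0.058 to 0.050 in wild type. These medians are descriptions of genes picked by function, and no test was made between complexes. The 4 dehydrogenases were spread widely, from -1.80 for CYB2 to 0.19 for NDE1 in the hsp31 deletion, and complex II here includes SHH3 and SHH4. The order of the complexes therefore depends on which genes were listed.

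Among the dehydrogenases 2 of 4 were lower in the hsp31 deletion, 4 in the hsp32 deletion and 3 in the hsp33 deletion, and none was higher. CYB2, the lactate dehydrogenase that passes electrons to cytochrome c, had log2 intensities of 11.76, 11.82 and 11.60 in the hsp31 deletion, 11.12, 11.17 and 10.77 in the hsp32 deletion and 11.62, 11.56 and 11.40 in the hsp33 deletion, against 13.45, 13.60 and 13.50 in wild type. None of the 9 deletion arrays reached the wild-type range. CYB2 was 3.47-, 5.65- and 3.99-fold lower (log2 -1.8, -2.5 and -2.0, SE 0.11, adjusted p = 2.65e-08, 3.91e-10 and 5.77e-09). NDI1, the dehydrogenase that faces the matrix, averaged 11.74 ± 0.21, 11.19 ± 0.35 and 11.61 ± 0.12 in the 3 deletions and 12.11 ± 0.10 in wild type (SD, n = 3 each). It was lower in the hsp32 deletion (-0.92, adjusted p = 9.19e-05) and the hsp33 deletion (-0.50, adjusted p = 0.0108), while -0.37 in the hsp31 deletion did not pass (adjusted p = 0.0517). There 75th percentile scaling put it at -0.51 and median scaling at -0.72, and both called it.

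The external NADH dehydrogenases NDE1 and NDE2 moved apart. NDE2 had log2 intensities of 11.75, 11.71 and 11.63 in the hsp31 deletion, 10.21, 10.16 and 10.20 in the hsp32 deletion and 11.40, 11.21 and 10.72 in the hsp33 deletion, against 13.14, 13.20 and 13.47 in wild type. The hsp32 deletion arrays lay below every other array. NDE2 was 2.98-, 8.45- and 4.46-fold lower, and the hsp32 deletion also lay below the hsp31 deletion (-1.50, adjusted p = 8.42e-06). NDE1 had 13.48, 13.63 and 13.54 in the hsp31 deletion, 13.01, 12.77 and 12.58 in the hsp32 deletion and 13.44, 13.44 and 12.85 in the hsp33 deletion, against 13.12, 13.35 and 13.61 in wild type. Only the hsp32 deletion was lower than wild type for NDE1 (-0.57, adjusted p = 0.00655), and the hsp31 and hsp33 deletion arrays overlapped it, at 0.19 and -0.12.

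**Figure D4:**
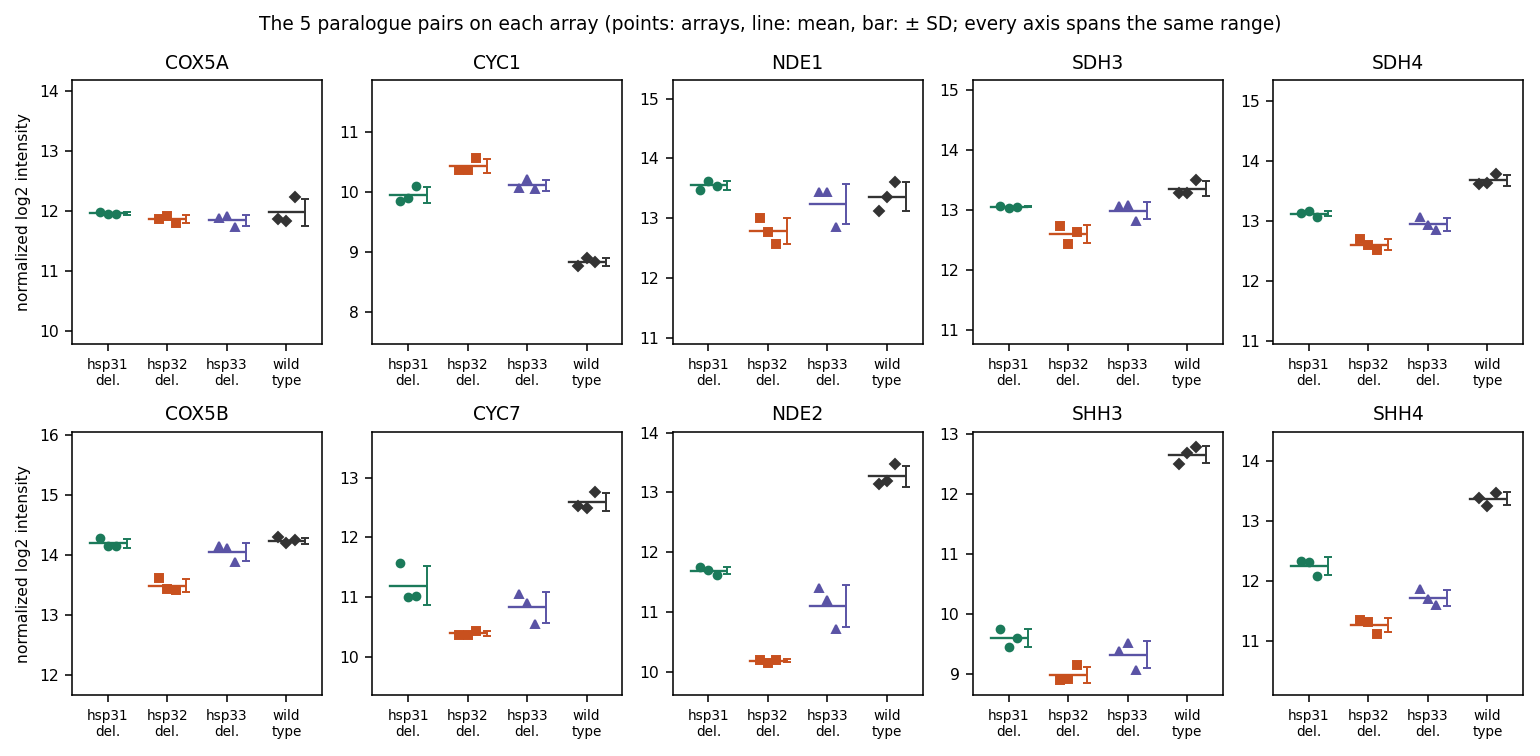
Normalized log2 intensity of the 5 pairs of paralogues on each array, the first gene of a pair above the second, with the hsp31, hsp32 and hsp33 deletions left of wild type. Points are arrays, lines are group means and bars ± 1 SD, and every axis spans the same range. NDE2, SHH3, SHH4 and CYC7 stand highest in wild type without overlap, CYC1 stands lowest in wild type without overlap, and COX5A overlaps.

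Complex II was lower throughout: 5 of 6 genes passed in the hsp31 deletion, and all 6 in the hsp32 and hsp33 deletions. SHH3 had the largest change of all 52 genes in each deletion. SHH3, a gene similar to the membrane anchor gene SDH3, had log2 intensities of 9.75, 9.45 and 9.60 in the hsp31 deletion, 8.89, 8.91 and 9.14 in the hsp32 deletion and 9.38, 9.51 and 9.07 in the hsp33 deletion, against 12.50, 12.68 and 12.79 in wild type. It was 8.32-, 12.8- and 10.1-fold lower (adjusted p = 6.61e-10, 4.17e-11 and 1.51e-10), with a wide gap between every deletion array and wild type. SHH4, an alternate form of the anchor Sdh4, had 12.34, 12.32 and 12.08, then 11.35, 11.32 and 11.12, then 11.86, 11.70 and 11.60 in the deletions of hsp31, hsp32 and hsp33, against 13.39, 13.25 and 13.46 in wild type. The 4 groups did not overlap for SHH4, and the hsp33 deletion was lower than the hsp31 deletion (-0.52, adjusted p = 0.0125).

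The standard subunits of succinate dehydrogenase changed less. SDH3 averaged 13.06 ± 0.01, 12.60 ± 0.16 and 12.99 ± 0.15 in the deletions of hsp31, hsp32 and hsp33 and 13.36 ± 0.13 in wild type, lower by log2 changes of -0.30, -0.76 and -0.37 (adjusted p = 0.0235, 1.52e-05 and 0.00667). Its call in the hsp31 deletion was lost without hsp31 deletion replicate 2 (-0.30, adjusted p = 0.055), hsp31 deletion replicate 3 (-0.30, adjusted p = 0.0537) or wild type replicate 3 (-0.23, adjusted p = 0.107). SDH4 averaged 13.12 ± 0.04, 12.60 ± 0.10 and 12.94 ± 0.11, against 13.68 ± 0.09 in wild type, and all 9 deletion arrays lay below wild type. SDH1, the flavoprotein, was lower in the hsp32 deletion (-0.97, adjusted p = 7.81e-06) and the hsp33 deletion (-0.66, adjusted p = 0.000407), and -0.23 in the hsp31 deletion did not pass (adjusted p = 0.137), though 75th percentile scaling (-0.48) and median scaling (-0.68) called it. SDH2, the iron-sulfur subunit, the one gene of complex II outside the naming rule, lay at -0.82, -1.22 and -1.06.

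In complex III 6 of 9 genes were lower in the hsp31 deletion, 8 in the hsp32 deletion and 6 in the hsp33 deletion, and none was higher. QCR10, a small subunit, had log2 intensities of 9.02, 9.65 and 9.24 in the hsp31 deletion, 8.76, 9.09 and 8.22 in the hsp32 deletion and 8.81, 8.67 and 9 in the hsp33 deletion, against 10.22, 10.03 and 10 in wild type. It was 1.72-, 2.63- and 2.39-fold lower, with every deletion array below wild type. RIP1, the Rieske iron-sulfur protein, lay at -0.56, -1.07 and -0.95 (SE 0.20, adjusted p = 0.0301, 0.000329 and 0.00112). Its call in the hsp31 deletion was lost without hsp31 deletion replicate 3 (-0.43, adjusted p = 0.119), wild type replicate 1 (-0.54, adjusted p = 0.079) or wild type replicate 2 (-0.49, adjusted p = 0.103).

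QCR6 and QCR7 stood at the other end of complex III. QCR7 averaged 13.59 ± 0.08, 13.27 ± 0.01 and 13.49 ± 0.06 in the deletions of hsp31, hsp32 and hsp33 and 13.64 ± 0.01 in wild type, and was lower in the hsp32 deletion (-0.37, adjusted p = 0.000538). With 75th percentile scaling it was also called lower in the hsp31 and hsp33 deletions (-0.28 and -0.31), and with median scaling too. QCR6, the acidic hinge subunit, lay at 0.037, -0.13 and -0.017 and passed in no deletion with quantile scaling, while 75th percentile and median scaling called it lower in all 3. COR1, QCR8, QCR9 and CYT1, the last encoding cytochrome c1, were lower in each deletion, with CYT1 at -0.48, -1.14 and -0.67. QCR2, a core subunit outside the naming rule, was singled out after its values were seen. Its log2 change of -1.01 in the hsp32 deletion rested on replicate 2, where the 2 spots of its probe read 7.81 and 11.67 after normalization. The other replicates stood at 11.56 and 11.30 in the hsp32 deletion, against 11.80, 11.92 and 11.90 in wild type, and without replicate 2 the log2 change was -0.44. No other gene of the 52 had spots more than 1 log2 unit apart on any array.

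The cytochrome c genes moved in opposite directions. CYC1, which encodes iso-1-cytochrome c, the main form in respiring cells, had log2 intensities of 9.85, 9.89 and 10.10 in the hsp31 deletion, 10.36, 10.37 and 10.56 in the hsp32 deletion and 10.07, 10.21 and 10.04 in the hsp33 deletion, against 8.76, 8.89 and 8.83 in wild type. All 9 deletion arrays were above wild type, and CYC1 was 2.17-, 3.04- and 2.43-fold higher (adjusted p = 3.82e-07, 3.66e-09 and 6.12e-08). CYC7, which encodes iso-2-cytochrome c, the form known to be favoured at low oxygen, had 11.57, 11 and 11.02, then 10.38, 10.37 and 10.44, then 11.05, 10.90 and 10.55 in the deletions of hsp31, hsp32 and hsp33, against 12.52, 12.49 and 12.76 in wild type. It was 2.63-, 4.56- and 3.38-fold lower (adjusted p = 5.19e-06, 2e-08 and 3.42e-07). CYC1 stayed higher and CYC7 lower under all 3 scalings.

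In complex IV, cytochrome c oxidase, 4 of 9 genes were lower in the hsp31 deletion, 7 in the hsp32 deletion and 5 in the hsp33 deletion, and none was higher. COX13 averaged 13.04 ± 0.15, 12.78 ± 0.18 and 13.05 ± 0.07 in the 3 deletions and 13.68 ± 0.14 in wild type, 1.55-, 1.87- and 1.55-fold lower. COX4 averaged 10.70 ± 0.08, 10.48 ± 0.07 and 10.65 ± 0.14, against 11.15 ± 0.19 in wild type, 1.37-, 1.59- and 1.41-fold lower. For both subunits every deletion array lay below wild type. COX8 and COX12 were also lower in each, COX7 in the hsp32 and hsp33 deletions (-0.39 and -0.27) and COX6 in the hsp32 deletion (-0.21). The call for COX7 in the hsp33 deletion was lost without any 1 hsp33 deletion array or wild type replicate 1, and that for COX6 without any 1 hsp32 deletion array or wild type replicate 2 or 3. COX9 passed in no deletion with quantile scaling (0.055, -0.017 and 0.0076), and median scaling put it at -0.32, -0.43 and -0.35 and called it lower in all 3.

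Subunit V of the oxidase has a form made in air, from COX5A, and a form made at low oxygen, from COX5B. COX5A had log2 intensities of 11.98, 11.95 and 11.95 in the hsp31 deletion, 11.87, 11.92 and 11.79 in the hsp32 deletion and 11.88, 11.91 and 11.73 in the hsp33 deletion, against 11.87, 11.83 and 12.23 in wild type, and the groups overlapped. Its log2 changes were -0.16, -0.25 and -0.26 with 75th percentile scaling, which called the last 2, and -0.36, -0.52 and -0.49 with median scaling, which called all 3. COX5B had 14.28, 14.15 and 14.14, then 13.61, 13.43 and 13.42, then 14.15, 14.12 and 13.88 in the deletions of hsp31, hsp32 and hsp33, against 14.29, 14.19 and 14.24 in wild type. COX5B was 1.68-fold lower in the hsp32 deletion (adjusted p = 6.49e-06), and lower there than in the hsp31 deletion too (-0.70, adjusted p = 7.11e-05). In the hsp31 and hsp33 deletions its changes of -0.04 and -0.19 did not pass, though 75th percentile scaling put them at -0.45 and -0.50 and called both.

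The 5 pairs of paralogues were compared by the difference of the 2 log2 changes on the same arrays. A single factor per array, as in 75th percentile and median scaling, cancels in it, and quantile scaling is not a single factor. Over all 9 deletion arrays against 3 wild-type arrays, the log2 change of the first gene minus that of the second was 3.11 for CYC1 and CYC7, 2.88 for SDH3 and SHH3, 2.10 for NDE1 and NDE2 and 0.84 for SDH4 and SHH4. Each of these 4 gave a two-sided exact permutation p of 0.00455, the smallest that 9 arrays against 3 can give, and an adjusted p of 0.00568 over the 5 pairs, with all 9 deletion arrays on the same side of wild type. For COX5A and COX5B the difference was 0.24 (exact permutation p = 0.245), and the arrays overlapped. With 75th percentile or median scaling it was 0.43 and passed (exact permutation, adjusted p = 0.0182). The 9 arrays come from 3 different strains and were pooled as 1 group, so this p does not speak for any 1 deletion. Within 1 deletion, 3 arrays against 3 cannot go below an exact p of 0.10. The difference in the deletions of hsp31, hsp32 and hsp33 was 2.51, 3.79 and 3.04 for CYC1 and CYC7, 2.75, 2.92 and 2.97 for SDH3 and SHH3, 1.76, 2.51 and 2.04 for NDE1 and NDE2, and 0.57, 1.03 and 0.91 for SDH4 and SHH4. For COX5A and COX5B it was 0.03, 0.63 and 0.05. Whether the probes of a pair read each other's message was not tested.

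**Figure D5:**
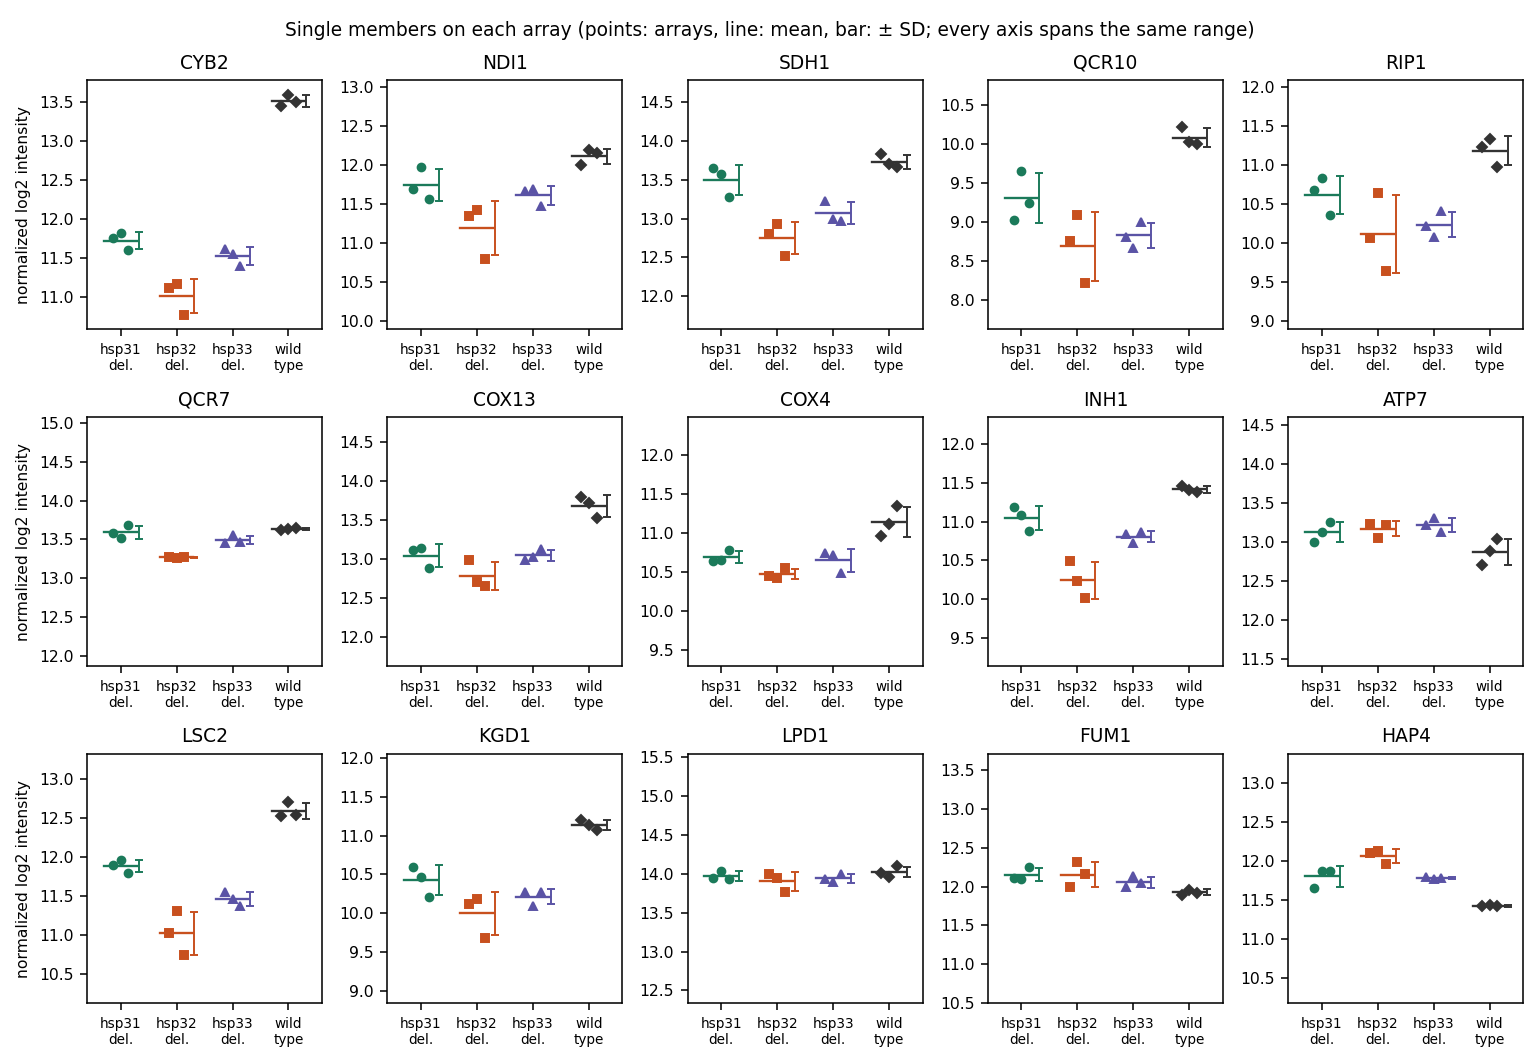
Normalized log2 intensity of 15 single genes on each array, with the hsp31, hsp32 and hsp33 deletions left of wild type. Points are arrays, lines are group means and bars ± 1 SD, and every axis spans the same range. CYB2, LSC2 and INH1 stand lower in every deletion array than in wild type, HAP4 stands higher, and LPD1 overlaps.

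The ATP synthase changed least of the multi-subunit complexes. In the hsp31 deletion 1 of 13 genes was lower and 2 higher, in the hsp32 deletion 7 lower and 1 higher, and in the hsp33 deletion 4 lower and 2 higher. Of all genes tested, 30.4%, 36.7% and 32.4% were lower and 25.7%, 33.3% and 29.0% higher in these 3 deletions. INH1, the peptide that blocks the enzyme from running backwards, had log2 intensities of 11.19, 11.08 and 10.88 in the hsp31 deletion, 10.49, 10.24 and 10.02 in the hsp32 deletion and 10.84, 10.72 and 10.86 in the hsp33 deletion, against 11.46, 11.40 and 11.38 in wild type. It was 1.29-, 2.24- and 1.52-fold lower, with no overlap with wild type. The call in the hsp31 deletion was lost without hsp31 deletion replicate 3 (-0.28, adjusted p = 0.0761) or wild type replicate 1 (-0.34, adjusted p = 0.0529). ATP16, the delta subunit of the central stalk, was lower in the hsp32 deletion (-0.64, adjusted p = 0.00248) and the hsp33 deletion (-0.57, adjusted p = 0.00657), with -0.37 in the hsp31 deletion (adjusted p = 0.0589), where 75th percentile scaling (-0.42) and median scaling (-0.63) called it.

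ATP7 and ATP15, subunits of the peripheral and the central stalk, were the ATP synthase genes that rose, and of the 3 scalings the rise passed with quantile scaling only. ATP7 had 13.00, 13.13 and 13.26 in the hsp31 deletion, 13.23, 13.05 and 13.22 in the hsp32 deletion and 13.22, 13.30 and 13.13 in the hsp33 deletion, against 12.70, 12.88 and 13.04 in wild type. Its log2 changes were 0.26, 0.29 and 0.34 (adjusted p = 0.0466, 0.0203 and 0.0101), against 0.071, 0.16 and 0.19 with 75th percentile and -0.13, -0.12 and -0.039 with median scaling, and without wild type replicate 1 they were 0.17, 0.21 and 0.26 with no call left. ATP15 lay at 0.36, 0.15 and 0.31 (adjusted p = 0.00441, 0.151 and 0.00957), against -0.026, -0.26 and -0.073 with median scaling. ATP4 and ATP5 of the peripheral stalk were lower in the hsp32 and hsp33 deletions, and ATP1 and ATP2, the alpha and beta subunits, in the hsp32 deletion (-0.25 and -0.39). The call for ATP1 was lost without hsp32 deletion replicate 2 or 3 or wild type replicate 1, and that for ATP4 in the hsp33 deletion (-0.22) without hsp33 deletion replicate 2 or 3 or wild type replicate 2 or 3. ATP3, ATP17, ATP18 and ATP20 passed in no deletion with quantile scaling.

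Of the 8 Krebs cycle genes 3 were lower and 1 higher in the hsp31 deletion, 6 lower and 1 higher in the hsp32 deletion, and 5 lower in the hsp33 deletion. The shares of all genes tested were 30.4%, 36.7% and 32.4% lower and 25.7%, 33.3% and 29.0% higher in these deletions. LSC2, the beta subunit of succinyl-CoA ligase, had log2 intensities of 11.90, 11.96 and 11.80 in the hsp31 deletion, 11.02, 11.30 and 10.74 in the hsp32 deletion and 11.55, 11.46 and 11.37 in the hsp33 deletion, against 12.52, 12.70 and 12.54 in wild type. The 4 groups did not overlap, and LSC2 was 1.63-, 2.97- and 2.19-fold lower (adjusted p = 0.000249, 5.42e-08 and 2.51e-06). KGD2, the second component of the alpha-ketoglutarate dehydrogenase complex, was lower in each deletion too, and IDH1 in the hsp32 and hsp33 deletions. KGD1, the first component of that complex, averaged 10.43 ± 0.19, 10 ± 0.27 and 10.22 ± 0.10 in the 3 deletions and 11.14 ± 0.06 in wild type, 1.64-, 2.2- and 1.89-fold lower. LPD1, the third component of that complex, which is shared with pyruvate dehydrogenase, overlapped wild type in every deletion, at -0.048, -0.12 and -0.082, and 75th percentile scaling put it at -0.40, -0.36 and -0.34 and called it lower. FUM1, fumarase, rose by 0.23 in both the hsp31 and the hsp32 deletion (adjusted p = 0.0479 and 0.0397) with quantile scaling and lay at -0.13 and -0.19 with median scaling. Leaving out any 1 array of the hsp31 deletion, the hsp33 deletion or wild type, or hsp32 deletion replicate 3, ended the call for FUM1 in the hsp31 deletion, at 0.18 to 0.26. Its call in the hsp32 deletion was lost without hsp32 deletion replicate 2 (0.15, adjusted p = 0.168), hsp32 deletion replicate 3 or any 1 wild-type array, at 0.15 to 0.25.

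HAP4, the activator of these genes, was higher in each deletion, in the direction opposite to most of the 52 genes that passed. It had log2 intensities of 11.65, 11.88 and 11.88 in the hsp31 deletion, 12.11, 12.13 and 11.97 in the hsp32 deletion and 11.80, 11.77 and 11.79 in the hsp33 deletion, against 11.42, 11.44 and 11.42 in wild type. HAP4 was 1.30-, 1.56- and 1.28-fold higher (adjusted p = 0.00179, 1.12e-05 and 0.00215) with no overlap with wild type. With median scaling the change was 0.093 in the hsp31 deletion and 0.06 in the hsp33 deletion, and neither passed. Of 8 other Hap and oxygen regulators, 1, 1 and 1 were higher and 2, 4 and 3 lower in the deletions of hsp31, hsp32 and hsp33, with a median of -0.08, -0.18 and -0.18. Of all genes tested, 30.4%, 36.7% and 32.4% were lower and 25.7%, 33.3% and 29.0% higher. With median scaling 6 of the 8 were lower in each deletion, where 35.7%, 40.5% and 36.8% of all genes tested were lower. With 75th percentile scaling 1, 4 and 3 were lower, where 23.4%, 27.8% and 25.0% of all genes tested were. With quantile scaling the one that rose was ROX1, the repressor of genes of low oxygen (0.24, 0.34 and 0.32). PUF3, which binds messages of mitochondrial proteins, lay at -0.52, -0.74 and -0.65.

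The deletions were also compared with each other. In the hsp32 deletion against the hsp31 deletion 28 of the 52 genes were lower and 2 higher, where 17.8% of all genes tested were lower and 19.8% higher, 37.6% in all, and the median was -0.32. The 2 higher genes were CYC1 (0.48, adjusted p = 0.00117) and HAP4 (0.26, adjusted p = 0.0245), and the lower ones included all 4 dehydrogenases and all 6 complex II genes. In the hsp33 deletion against the hsp31 deletion 2 were lower and 0 higher, with 1.96% of all genes tested lower and 2.87% higher, 4.83% in all. The 2 were NDE2 (-0.58, adjusted p = 0.0353) and SHH4 (-0.52), and 0 were left without hsp31 deletion replicate 2, hsp33 deletion replicate 2 or hsp33 deletion replicate 3. In the hsp33 deletion against the hsp32 deletion 13 were higher and 2 lower, with 9.57% of all genes tested higher and 9.14% lower, 18.7% in all, and the median was 0.21. The 2 lower genes were again CYC1 (-0.32, adjusted p = 0.0286) and HAP4 (-0.28, adjusted p = 0.032), and without hsp33 deletion replicate 1 the counts were 6 higher and 0 lower. On slide 1 alone the median of the 52 genes was -0.29, -0.18 and 0.13 in these 3 comparisons. The median of all genes tested there was 0.0056, 0.020 and 0.0033. Each slide held 1 or 2 arrays of a group, and fewer of all genes tested passed on slide 1 than with both slides.

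Genes that build or feed the chain were followed as lists. Their counts with quantile scaling stand beside 30.4%, 36.7% and 32.4% of all genes tested lower and 25.7%, 33.3% and 29.0% higher in the deletions of hsp31, hsp32 and hsp33. Of 42 assembly factors of complexes II to V on the array, 25, 31 and 24 were lower and 1, 2 and 2 higher in the deletions of hsp31, hsp32 and hsp33, with medians of -0.34, -0.61 and -0.32. CBP4, needed to assemble complex III, lay at -1.10, -1.81 and -1.34, and RCF1, which links complexes III and IV, at -0.63, -1.11 and -0.66. ATP23, a protease and chaperone of the ATP synthase, rose by 0.65, 0.76 and 0.67. With 75th percentile scaling 17, 24 and 16 of the 42 were lower and 3, 6 and 6 higher. Under that scaling 23.4%, 27.8% and 25.0% of all genes tested were lower and 36.8%, 44.0% and 40.4% higher, and the next counts share these values. Of 17 translation activators and RNA factors for mitochondrial messages, 8 were lower in each deletion and 3, 4 and 2 higher with quantile scaling. With 75th percentile scaling 2, 6 and 4 were lower and 7 higher in each, where the share of all genes tested that were higher had risen as well. NCA2 lay at -0.63, -1.42 and -0.92 and CBS2, an activator for the COB message, at -0.49, -0.91 and -0.68. PET122, an activator for the COX3 message, lay at 0.6, 0.45 and 0.58 and passed in each deletion, though not with median scaling (0.22, 0.058 and 0.21), and AEP1 lay at 0.34, 0.34 and 0.39.

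Cofactor genes moved both ways. Of 10 genes of ubiquinone synthesis 5, 9 and 4 were lower and COQ2 was higher in each deletion (0.61, 0.70 and 0.66), against COQ4 at -0.80, -1.33 and -0.85 and COQ3 at -0.60, -0.97 and -0.72. Of 8 genes of haem synthesis 4, 3 and 2 were lower and 3, 2 and 2 higher. HEM13, coproporphyrinogen oxidase, rose by 1.13, 2.66 and 1.92 (adjusted p = 5.42e-05, 5.22e-09 and 2.42e-07) and HEM12 by 0.51, 0.47 and 0.27. HEM15, ferrochelatase, which makes the last step to haem, lay at -0.87, -1.59 and -1.0, and HEM2 at -0.32, -0.25 and -0.22.

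Other genes around the chain and the cycle, outside the 52 genes, moved as follows. Of 6 other dehydrogenases, not all of which pass electrons to the chain, 2, 3 and 4 were lower and 2, 1 and 1 higher. DLD1, the D-lactate dehydrogenase, lay at -1.13, -1.71 and -1.46 and GUT2, the glycerol phosphate dehydrogenase, at -1.0, -2.32 and -1.6. Of 7 genes of the early and last steps of the cycle 4, 5 and 5 were lower. ACO1, an enzyme of the citrate steps, lay at -0.71, -1.26 and -0.93, and CIT3, a citrate synthase, at -0.66, -1.80 and -1.41. Of 8 genes of the pyruvate dehydrogenase complex and its regulators 3, 6 and 7 were lower and none higher, with the phosphatase genes PTC6 at -0.50, -1.21 and -0.87 and PTC5 at -0.42, -0.66 and -0.53. With median scaling all 8 were lower in each deletion, beside 35.7%, 40.5% and 36.8% of all genes tested. With 75th percentile scaling 5, 7 and 7 were, beside 23.4%, 27.8% and 25.0%. Of 8 mitochondrially encoded genes, which are transcribed by another polymerase, 2, 4 and 2 were lower and none higher, beside the 30.4%, 36.7% and 32.4% of all genes tested that were lower, with VAR1 at -0.58, -0.84 and -0.78. With median scaling 4, 7 and 6 of these 8 were lower, where 35.7%, 40.5% and 36.8% of all genes tested were lower. With 75th percentile scaling 1, 6 and 4 were lower, where 23.4%, 27.8% and 25.0% of all genes tested were. OLI1 was saturated on all 12 arrays.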

How the data were processed

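RNA of 12 samples was labelled with Cy3 and read on 12 one-colour Agilent arrays, per the labels' protocols. The deposited scanner files give the foreground and local background intensity of each spot and the percent of its pixels that were saturated. Scanner software and version are not given in the sources used here. The deposited values of the whole series equalled the median foreground intensity in 100% of spots, and were used as an alternative. Gene names are those of a reference annotation matched by locus, or of the array files where it gave none.

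Background was corrected with normexp (offset 50), arrays were quantile normalized over 12504 gene spots, and log2 values of the 2 spots of a probe were averaged. A gene was above background on an array where the mean subtracted signal of its 2 spots passed the median of 77 negative controls plus 2 SD. A gene entered the tests where every array of some group had it above background, which left 5863 genes. A spot was saturated with 50 percent or more saturated pixels. Where a group was not above background, a bound is given against the lowest detected signal. A single limma fit (version 3.58.1, R 4.3.3) over the 4 groups gave all 6 comparisons, with Benjamini-Hochberg adjustment within each, and every adjusted p not called exact is from it. Differences are first minus second as each comparison names them, on the log2 scale. The 5 pairs of paralogues were tested by exact two-sided permutation. The fit was tested on simulated data. Figures were drawn with matplotlib 3.10.9.

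The 52 genes and the lists were chosen with earlier results of these data known. Genes named were the pairs, HAP4, CYB2, NDI1, INH1, the 2 highest and 2 lowest in each complex by mean change against wild type, and, from each list, up to 2 per direction called alike in all 3 comparisons. Others were named after their values were seen. Slides were inferred from the scan position of the arrays and are not in the labels. One hsp33 deletion array is labelled as deleted in its description only. Alternatives were other background corrections, scalings and filters, saturated spots left out, slide and replicate number as blocks, the groups of each comparison alone, each slide alone and each array left out. The authors' own comparison tables were not used. The number of arrays limits the precision. One gene that the naming rule picks from a list is not reported here.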

Additional observations from a re-analysis of the deposited data

How the results depend on the processing

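Of 2175 repeats of a named gene's change under another setting, 2036 kept their side of the threshold, 29 of them with a changed sign that neither setting called, 83 lost and 44 gained a call, and 12 turned. In the hsp31 deletion QCR6 turned to -0.24 with 75th percentile and -0.44 with median scaling. With median scaling COX9 turned to -0.32 in the hsp31 deletion and -0.35 in the hsp33 deletion, ATP15 to -0.026, -0.26 and -0.073 and ATP7 to -0.13, -0.12 and -0.039 in the deletions of hsp31, hsp32 and hsp33, and FUM1 to -0.13 and -0.19 in the hsp31 and hsp32 deletions. The causes were not tested. Counts on a single slide rest on 1 or 2 arrays of a group, and on slide 1 fewer of all genes tested passed as well, in every comparison. In the hsp31 deletion the 5 higher genes became 3 with plain subtraction, 2 with 75th percentile scaling, 1 with median scaling, 1 on slide 1 and 2 on slide 2, and the 22 lower genes became 37, 45 and, on slide 2, 10. In the hsp32 deletion the 4 higher became 2 with either scaling and on either slide. In the hsp33 deletion the 4 higher became 2 and 1 with these scalings and 1 and 2 on the slides, and the 30 lower became 19 on slide 2. Between the hsp32 and hsp31 deletions the 2 higher became 1 with median scaling or with these groups alone and 0 on either slide, and the 28 lower became 6 on slide 1 and 7 on slide 2. Between the hsp33 and hsp31 deletions the 2 lower became 1 with plain subtraction or a slide block, 4 with the series values or with genes above background on all arrays, and 0 with these groups alone or on either slide. Between the hsp33 and hsp32 deletions the 13 higher became 0 on slide 1, and the 2 lower became 1 with median scaling and 0 with these groups alone or on either slide.

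For the pairs, COX5A and COX5B differed by 0.43 with 75th percentile or median scaling (exact permutation, adjusted p = 0.0182). Within slides 1 and 2, the differences were 3.01 and 3.10 for CYC1 and CYC7, 2.08 and 2.08 for NDE1 and NDE2, 2.88 and 2.94 for SDH3 and SHH3, and 0.78 and 0.84 for SDH4 and SHH4, where so few arrays cannot pass.

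With each array left out, the counts of higher and lower genes ran 3 to 5 and 20 to 25 in the hsp31 deletion, 2 to 4 and 36 to 39 in the hsp32 deletion, and 3 to 4 and 27 to 32 in the hsp33 deletion. They ran 1 to 2 and 22 to 28 between the hsp32 and hsp31 deletions, 0 to 0 and 0 to 4 between the hsp33 and hsp31 deletions, and 6 to 18 and 0 to 2 between the hsp33 and hsp32 deletions. The 5 higher in the hsp31 deletion became 3 without hsp31 deletion replicate 2 or 3, hsp33 deletion replicate 1 or 2, or wild type replicate 1 or 2, and the 4 higher in the hsp32 deletion became 2 without hsp32 deletion replicate 3 or wild type replicate 1. Between the hsp32 and hsp31 deletions 1 was higher without hsp31 deletion replicate 1 or hsp32 deletion replicate 1 or 2. Between the hsp33 and hsp31 deletions 1 was lower without hsp31 deletion replicate 1 or wild type replicate 1 or 2, 3 without hsp31 deletion replicate 3 or hsp32 deletion replicate 2, and 4 without hsp32 deletion replicate 3. Between the hsp33 and hsp32 deletions 8 were higher without hsp33 deletion replicate 2, and 1 was lower without any 1 array of the hsp32 deletion or without hsp33 deletion replicate 2 or 3. The pairs ran 0.16 to 0.36 for COX5A and COX5B, 3.02 to 3.25 for CYC1 and CYC7, 2.03 to 2.16 for NDE1 and NDE2, 2.83 to 2.92 for SDH3 and SHH3 and 0.80 to 0.88 for SDH4 and SHH4.

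Whether replicate numbers pair the arrays was not settled. Of 18 pairs with the same number, 4 had deviations correlated above 0.1, and the correlations ran from -0.42 to 0.29. Yet 8 of 12 arrays correlated best with an array of their own number. With a replicate block 4 genes were lower between the hsp33 and hsp31 deletions, against 2 without it. The fits with 75th percentile and median scaling for the list genes and within slides were chosen after seeing the data.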
